A study of Homo sapiens with 16 samples.

Results

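The genes of DNA replication and S phase were followed in PRO-seq libraries of Kasumi-1 cells in which SMARCA5 was degraded. The members were taken by symbol from a list of 50 genes, and 49 of them were found among 10304 transcripts counted in gene bodies and near promoters. The remaining one, RPA3, the small subunit of replication protein A, was not analysed here. They fell into 8 roles: origin recognition and licensing (13 genes), helicase activation (6), polymerases and primase (9), clamp, clamp loader and single-strand binding (8), Okazaki fragment maturation (2), deoxynucleotide synthesis (3), chromatin assembly and histone mRNA (3), and fork protection and S phase control (5).

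Kasumi-1 is an acute myeloid leukaemia line, and SMARCA5 is the ATPase of the ISWI remodellers, which slide and space nucleosomes. Every library used here came from cells with an FKBP12F36V tag on both endogenous SMARCA5 alleles, the untreated ones included, and dTAG-47 recruits a ubiquitin ligase to that tag so that the protein is destroyed. The groups were tagged cells without treatment (0 h, n = 5) and tagged cells given 500 nM dTAG-47 for 2 h (n = 3), 6 h (n = 4) or 24 h (n = 2). Parental Kasumi-1 cells were not used here, and whether the tagged line is a single clone is not given in the sources used here. PRO-seq maps RNA polymerases that are engaged on the genome, so a gene-body level here is the density of transcribing polymerase, not the amount of mRNA or protein.

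Before each S phase the origin recognition complex, CDC6 and CDT1 load the MCM2 to MCM7 helicase onto origins in an inactive form. CDC45 and the GINS complex switch the helicase on, primase and the polymerases copy the strands behind it, and the PCNA clamp, loaded by replication factor C, holds the polymerases on DNA. Many of these genes are transcribed mainly at the G1/S boundary through E2F factors, and proliferating leukaemia cells are known to express them at high levels.

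Between 11182894 and 34209362 reads of a library fell in gene bodies and between 1667950 and 7171601 near promoters. A single member was covered by 123 to 15274 reads per library in gene bodies but by as few as 11 near promoters, so the promoter-proximal values are less precise. The libraries carry a code of 3 kinds in their column names, called runs here, and the code's meaning is not given in the sources used here. Run 1 holds 2 untreated libraries and 1 at 2 h, run 2 holds 2 libraries at each of the 4 times, and run 3 holds 1 untreated library and 2 at 6 h, so that 24 h was sampled in run 2 alone. Each change below is a log2 fold change from edgeR's quasi-likelihood test with terms for time and run, called where the Benjamini-Hochberg adjusted p over all transcripts was under 0.05. Principal components of the gene-body levels set both untreated libraries of run 1 at one end (first component, 46.8% of the variance), and results that rest on them are also given without them. Of 16 markers of Kasumi-1 and myeloid progenitors, 13 were measured. Their summed gene-body levels were 9323 to 11282 CPM, reads scaled to a common library size, at 0 h. The 2 measured of 16 markers of other cell types, KLF1 and EPCAM, had summed levels of 41.2 to 57.7 CPM. Over all libraries KIT (2494 to 4391 CPM) and RUNX1 (2796 to 3846 CPM) were the highest of the 13. CEBPA, AZU1 and CTSG did not exceed 11.9 CPM, while KLF1 had 8.74 to 30.7 CPM and EPCAM 17.0 to 33.6 CPM. The myeloid sum lay below the untreated range at 2 h (7845 to 8510 CPM) and 6 h (7969 to 9050 CPM) and within it at 24 h (9940 to 9947 CPM). The KLF1 and EPCAM sum lay below its untreated range at 2 h (32.2 to 34.2 CPM), 6 h (30.7 to 37.4 CPM) and 24 h (31.0 to 38.8 CPM). The part of either sum in the results was not tested. SMARCA5 itself did not pass the test in gene bodies at 2 h (log2 change -0.27 ± 0.12 SE, edgeR adjusted p = 0.078), 6 h or 24 h, and its transcription is no check of a treatment that acts on the protein.

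Promoter sequences are shown for POLA2, TIMELESS, RRM2 and PRIM1, the 4 members whose gene bodies passed the test in the most comparisons. ORC6 and POLD1 are shown as 2 that passed in none and moved least in the fit over all runs. Within runs ORC6 did move: at 2 h its change was -0.28 in run 1 and 0.30 in run 2, and the runs differed (edgeR adjusted p = 0.041). MCM6 was added after its promoter-proximal values were seen. The sequences are from RefSeq on GRCh38.p14 and give the 250 bases before the annotated start of each gene, 5′ to 3′ on the coding strand. Capitals mark every match, on either strand, to an E2F-type motif (TTTCCCGC, TTTCGCGC, TTTGCCGC or TTTGGCGC) or to CCAAT, the motif of NF-Y.
POLA2: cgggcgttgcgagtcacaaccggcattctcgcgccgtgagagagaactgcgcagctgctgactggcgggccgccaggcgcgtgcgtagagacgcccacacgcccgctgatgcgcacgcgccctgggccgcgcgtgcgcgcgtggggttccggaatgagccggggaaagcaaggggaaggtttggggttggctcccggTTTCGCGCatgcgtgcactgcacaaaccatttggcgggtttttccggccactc
TIMELESS: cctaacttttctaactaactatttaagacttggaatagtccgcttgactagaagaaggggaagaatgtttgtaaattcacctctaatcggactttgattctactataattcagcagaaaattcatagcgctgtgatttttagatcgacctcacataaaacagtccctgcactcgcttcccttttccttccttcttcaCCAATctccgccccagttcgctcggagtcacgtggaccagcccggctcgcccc
RRM2: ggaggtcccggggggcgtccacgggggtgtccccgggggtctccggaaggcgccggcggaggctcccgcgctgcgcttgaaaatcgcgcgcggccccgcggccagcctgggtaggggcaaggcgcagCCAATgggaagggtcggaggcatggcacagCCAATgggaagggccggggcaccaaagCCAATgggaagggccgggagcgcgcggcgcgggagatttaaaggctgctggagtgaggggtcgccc
PRIM1: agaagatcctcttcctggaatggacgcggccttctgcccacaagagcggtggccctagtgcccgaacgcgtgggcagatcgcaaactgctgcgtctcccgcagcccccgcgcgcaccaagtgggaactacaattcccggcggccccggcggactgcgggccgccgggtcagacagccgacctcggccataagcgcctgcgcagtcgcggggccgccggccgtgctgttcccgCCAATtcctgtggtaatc
ORC6: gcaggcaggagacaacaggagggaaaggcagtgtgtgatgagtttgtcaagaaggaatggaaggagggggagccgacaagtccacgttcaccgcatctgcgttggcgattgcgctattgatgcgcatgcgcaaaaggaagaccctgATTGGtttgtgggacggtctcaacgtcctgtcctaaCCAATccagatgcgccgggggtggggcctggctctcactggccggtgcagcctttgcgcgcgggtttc
POLD1: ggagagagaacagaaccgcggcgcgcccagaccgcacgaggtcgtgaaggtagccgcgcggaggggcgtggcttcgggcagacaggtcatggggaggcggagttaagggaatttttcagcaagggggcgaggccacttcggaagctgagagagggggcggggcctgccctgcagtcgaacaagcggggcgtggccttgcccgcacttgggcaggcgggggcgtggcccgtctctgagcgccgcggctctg
MCM6: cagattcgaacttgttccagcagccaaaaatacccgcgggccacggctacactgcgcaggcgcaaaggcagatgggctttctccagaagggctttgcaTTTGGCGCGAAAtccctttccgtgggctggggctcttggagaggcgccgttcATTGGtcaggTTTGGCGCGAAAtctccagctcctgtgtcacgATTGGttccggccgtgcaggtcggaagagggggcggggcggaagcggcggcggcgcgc
These windows lie at chr11:65261712-65261961 (plus strand), chr12:56449427-56449676 (minus strand), chr2:10122489-10122738 (plus strand), chr12:56752324-56752573 (minus strand), chr16:46689409-46689658 (plus strand), chr19:50384073-50384322 (plus strand) and chr2:135876444-135876693 (minus strand).

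POLA2 carried a single E2F-type match, 53 bases before its start, and no CCAAT. RRM2 carried 3 CCAAT boxes, the closest 66 bases before the start, while TIMELESS and PRIM1 carried 1 each and none of the 3 had an E2F-type match. ORC6 held 2 CCAAT matches, and POLD1 held neither motif in this window. MCM6 held the letters TTTGGCGCGAAA at 2 places, each of which counts as 2 overlapping E2F-type matches on opposite strands, along with 2 CCAAT matches. Of the 49 members, 44 have an entry in the RefSeq promoter table, which spans 250 bases before to 50 after the start. In these 300 bases 20 of the 44 (45.5%) held an E2F-type match, against 5.52% of 7351 other genes of the count tables and 3.33% of all 27305 promoters of the reference. CCAAT was found in 27 members (61.4%), against 37.8% of the other genes and 35.7% of all promoters. The GC box GGGCGG, a motif of SP factors, was found in 32 members (72.7%), 71.9% of the other genes and 44.6% of all promoters, and some of its matches can overlap a reversed E2F-type match. TTTGAA, the core of the CHR element of late cell cycle genes, was found in 1 member (2.27%), 9.40% of the other genes and 15.4% of all promoters. Among members whose gene bodies rose at 1 or more times, 4 of 15 promoters had an E2F-type match, and among members not called at any time 16 of 28 did. These are counts of letters, with no test. Which members count as called depends on the fit: at 2 h 13 rose over all runs and 35 in run 2 alone. In those fits 38.6% and 38.2% of all transcripts passed in either direction.

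In gene bodies more members rose than fell after SMARCA5 loss, with rises of up to 49.8% among those called. At 2 h this varied by run, with 22 members higher and 27 lower than untreated within run 1, and 45 higher and 4 lower within run 2. At 2 h 13 of 49 members rose (26.5%) and 1, ORC2, fell, where 19.7% of all transcripts rose, 18.9% fell and 38.6% passed in either direction. At 6 h 14 rose (28.6%) and none fell, where 13.5% of all transcripts rose and 26.8% passed in either direction. At 24 h 4 rose (8.16%) and none fell, where 10.8% of all transcripts rose and 19.8% passed in either direction. In this fit the members' share of rises was therefore above that of all transcripts at 6 h and less so at 2 h. At 24 h it was below. That order depended on the fit. In run 2 alone 71.4%, 65.3% and 34.7% of members rose at 2, 6 and 24 h. There 38.2%, 42.5% and 43.2% of all transcripts passed in either direction, and 47.7%, 48.4% and 49.7% of these were higher. Over all libraries the median log2 change of the 49 members was 0.11 at 2 h, 0.13 at 6 h and 0.06 at 24 h. Over all transcripts it was 0.01 at each time. At 6 h 41 members had a change above 0, against 51.7% of all transcripts. The changes were small: the median size of a member's change at 2 h was 0.14, where that of all transcripts was 0.21. The 3 comparisons share their untreated libraries and are therefore not independent of each other. In bulk nuclei, a different share of cells in S phase and a different level per cell cannot be told apart.

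**Figure D1:**
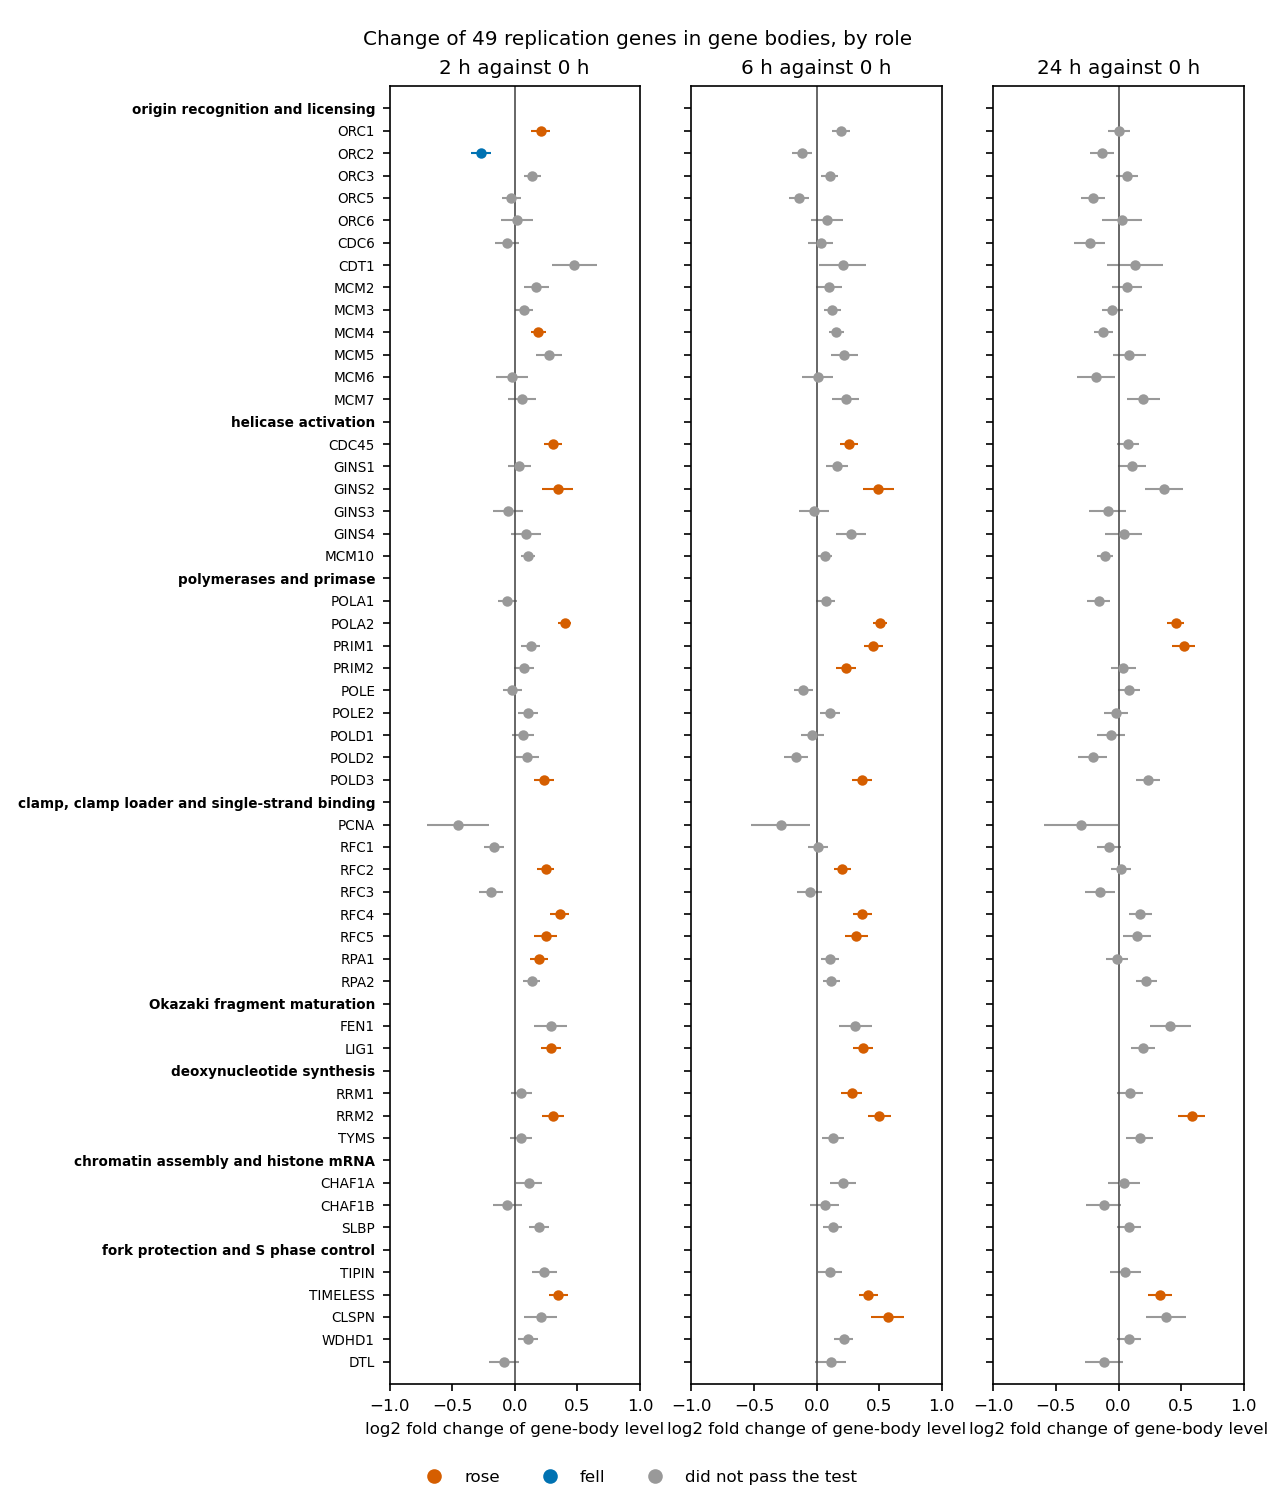
Log2 fold change of gene-body level (x axis) of the 49 members, grouped by role, at 2, 6 and 24 h against 0 h; points are estimates of edgeR's model with a run term and bars are 1 standard error. Called rises appear in every role except chromatin assembly and histone mRNA, and ORC2 at 2 h is the only called fall.

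The genes of origin recognition and licensing were called in gene bodies at 2 h only. At that time ORC1 and MCM4 rose and ORC2 fell among 13 genes, and at 6 h and 24 h none passed the test (2 and 1 at an unadjusted p under 0.05). ORC2, a core subunit of the origin recognition complex (chr2:201774894-201828424 on hg19), had untreated gene-body levels of 291 and 248 CPM in run 1, 232 and 237 in run 2 and 229 in run 3. At 2 h its levels were 187 CPM in run 1 and 222 and 216 in run 2. The 3 treated libraries all lay below the 5 untreated ones, but the step was much wider in run 1. The fall was 0.27 ± 0.08 SE on the log2 scale (edgeR adjusted p = 0.018), and without the 2 h library of run 1 the log2 change was -0.12 (adjusted p = 0.24). Without both untreated libraries of run 1 it was -0.12 as well (adjusted p = 0.10). With a run term, either omission leaves no change within run 1 to estimate, so these 2 fits are not separate checks. ORC1, the ATPase that starts licensing, had 122, 134, 119, 114 and 109 CPM untreated and 131, 144 and 148 CPM at 2 h, so the times overlapped. Its rise of 0.21 ± 0.07 (edgeR adjusted p = 0.041) was lost when any 1 of 6 libraries was left out, with log2 changes of 0.17 to 0.21 and adjusted p of 0.053 to 0.15: untreated A of run 1, A of run 3, A and B of run 2, and both 2 h libraries of run 2. CDT1, the partner of CDC6 in loading MCM, had a larger estimate at 2 h (0.47 ± 0.18) that missed the threshold (edgeR adjusted p = 0.051).

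The MCM genes encode the ring of the replicative helicase, and MCM4 alone of the 6 passed a test in gene bodies. MCM4 (chr8:48872763-48890719 on hg19) had untreated levels of 104, 109, 99.7, 103 and 92.0 CPM, and 112, 126 and 121 CPM at 2 h. All 2 h libraries were above all untreated ones, by 0.19 ± 0.06 (edgeR adjusted p = 0.024). By 24 h both libraries were back within the untreated range, at 94.3 and 99.2 CPM, and 24 h was lower than 2 h by -0.31 ± 0.08 (edgeR adjusted p = 0.039), the only member called lower in that comparison. The 2 h call was lost without untreated A or B or treated A or B of run 2, at log2 changes of 0.16 to 0.18 (adjusted p 0.060 to 0.082). The 24 h against 2 h call was lost without any 1 of the 4 libraries of run 2 at these times, at log2 differences of -0.27 to -0.35 (adjusted p 0.11 to 0.27). The other MCM genes had estimates between -0.02 (MCM6) and 0.27 ± 0.11 (MCM5, edgeR adjusted p = 0.057) at 2 h.

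Of the genes that activate the helicase, CDC45 and GINS2 rose at 2 h and 6 h, while GINS1, GINS3, GINS4 and MCM10 did not pass the test at any time. CDC45, the factor that joins MCM and GINS into the active helicase (chr22:19467414-19508135 on hg19), had 161 and 161 CPM untreated in run 1, 158 and 156 in run 2 and 138 in run 3. Its levels were 179.7, 201 and 199 CPM at 2 h, 180.2, 181, 199 and 172 at 6 h, and 170.1 and 160.0 at 24 h. The 2 h and 6 h libraries all lay above the untreated ones, and the 24 h libraries did not separate from them. The rise was 0.30 ± 0.07 at 2 h (edgeR adjusted p = 0.0051) and 0.26 ± 0.07 at 6 h (edgeR adjusted p = 0.017). The 6 h value was 0.16 without the untreated library of run 3 (adjusted p = 0.20), and the 2 h call was kept in each of 16 alternative settings. GINS2, a subunit of the GINS ring, had 29.4 and 27.9 CPM untreated in run 1 but 19.0, 17.2 and 19.3 in the other runs, and 24.4 to 30.7 CPM in all treated libraries. Times therefore overlapped through run 1 only. In run 1 the 2 h library, at 28.3 CPM, lay between the 2 untreated ones. The 2 h change of GINS2 was more positive in run 2 than in run 1, by 0.67 (edgeR adjusted p = 0.010). Its rise was 0.34 ± 0.12 at 2 h (edgeR adjusted p = 0.040) and 0.49 ± 0.12 at 6 h (edgeR adjusted p = 0.011). At 2 h this call was lost without untreated A or B or treated A or B of run 2 (0.24 to 0.33, adjusted p 0.095 to 0.14), and at 6 h without treated B of run 2 (0.45, adjusted p = 0.055).

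POLA2, PRIM1 and their partners PRIM2 and POLA1 form DNA polymerase alpha-primase, the enzyme that lays down the primer of every new strand, and POLA2 passed the test at each time. POLA2, the accessory subunit (chr11:65029432-65065088 on hg19), had 99.5 and 89.0 CPM untreated in run 1, 102 and 104 in run 2 and 94.2 in run 3. It had 125 CPM at 2 h in run 1 and 136 and 137 in run 2, then 149 and 149 at 6 h in run 2 and 130.5 and 128 in run 3, and 143 and 142 at 24 h. Each of the 9 treated libraries lay above each of the 5 untreated ones, in each run. The log2 rise was 0.40 ± 0.05 at 2 h, 0.50 ± 0.05 at 6 h and 0.46 ± 0.07 at 24 h, or 1.32, 1.42 and 1.37 times the untreated level (edgeR adjusted p = 2.3e-04, 4.5e-05 and 6.1e-04). Within runs the 2 h change was 0.41 in run 1 and 0.41 in run 2. These calls were kept in each of the 16, 17 and 15 alternative settings run at 2, 6 and 24 h.

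PRIM1, the catalytic primase subunit (chr12:57125364-57146146 on hg19), was called at 6 h and 24 h but not at 2 h. It had 72.7 and 74.3 CPM untreated in run 1, 54.2 and 54.4 in run 2 and 57.0 in run 3, then 72.6, 67.9 and 62.7 at 2 h. Levels were 79.7, 81.8, 69.2 and 76.8 CPM at 6 h and 83.3 and 82.3 at 24 h. Over all runs, the 2 h libraries lay among the untreated ones, and both 24 h libraries above all of them. Within run 2 both 2 h libraries (67.9 and 62.7 CPM) lay above both untreated ones, and in run 1 the 2 h library did not. The log2 change was 0.13 ± 0.07 at 2 h (edgeR adjusted p = 0.19), 0.45 ± 0.08 at 6 h (edgeR adjusted p = 9.5e-04) and 0.52 ± 0.09 at 24 h (edgeR adjusted p = 0.0021). The difference between 24 h and 2 h was itself called, at 0.39 ± 0.09 (edgeR adjusted p = 0.033), one of 420 transcripts (4.08%) called in that comparison. It was lost without treated B at 2 h or treated A or B at 24 h of run 2 (0.39 to 0.40, adjusted p 0.10 to 0.23). PRIM2, the other primase subunit, rose at 6 h (0.24 ± 0.08, edgeR adjusted p = 0.045), but it has a near-identical partial copy elsewhere in the genome that makes its count uncertain. That call was also lost when any 1 of 7 libraries was left out (0.20 to 0.29, adjusted p 0.058 to 0.16): untreated B of run 1, A of run 3, A and B of run 2, and at 6 h A and B of run 2 and B of run 3. POLA1, the catalytic subunit of polymerase alpha, had changes of -0.06, 0.07 and -0.16 and was not called.

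**Figure D2:**
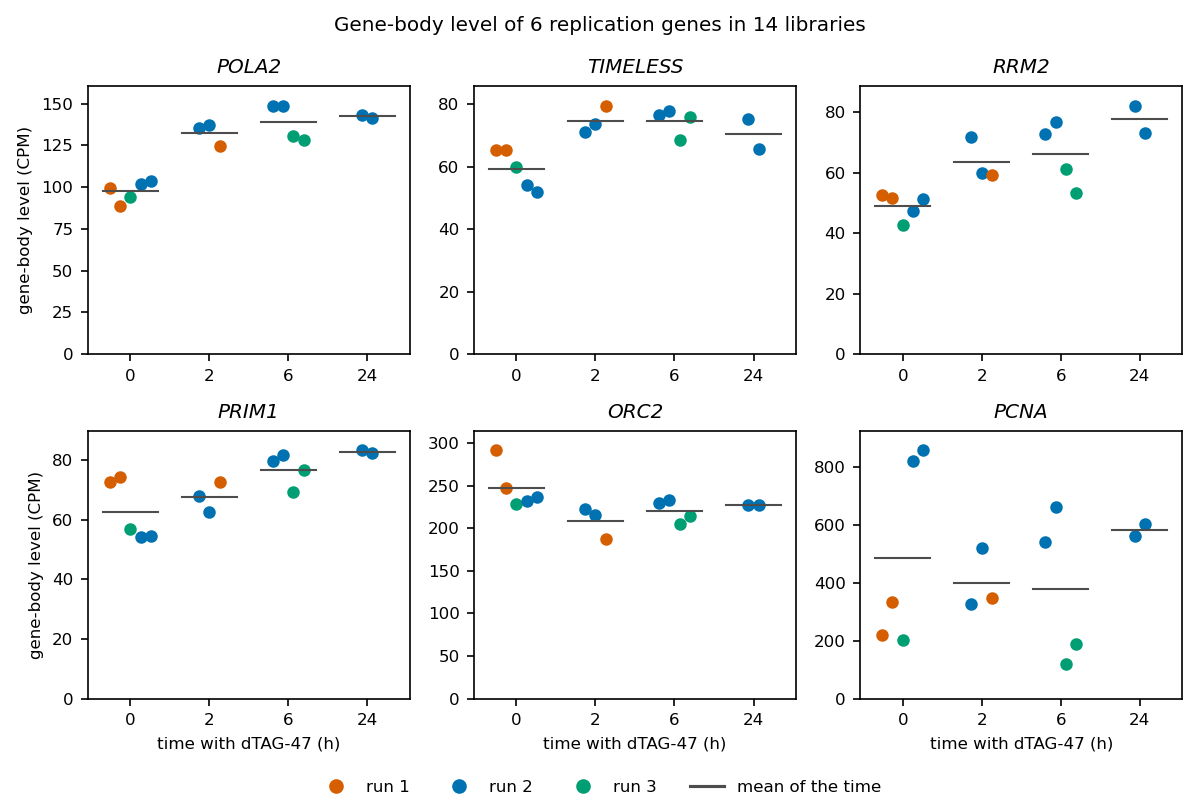
Gene-body level in CPM (y axis, from 0) of POLA2, TIMELESS, RRM2, PRIM1, ORC2 and PCNA in each of 14 libraries by time with dTAG-47 (x axis); each point is a library, coloured by run, and each line is the mean of a time. POLA2, TIMELESS and RRM2 lie above all untreated libraries at 2, 6 and 24 h, while PCNA separates by run within the untreated libraries.

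Among the replicative polymerases, POLD3 rose, and POLE, POLE2, POLD1 and POLD2 did not pass the test at any time, with estimates from -0.21 to 0.11. POLD3, an accessory subunit of polymerase delta, had 79.5, 71.3, 71.6, 74.9 and 61.9 CPM untreated and 78.5, 102 and 86.2 CPM at 2 h. At 6 h it had 101, 97.2, 78.0 and 80.1 CPM, and at 24 h 90.3 in both libraries. Treated and untreated libraries overlapped at 2 h and 6 h because the untreated library A of run 1 was as high as the lowest treated ones. The rise was 0.24 ± 0.08 at 2 h (edgeR adjusted p = 0.032) and 0.36 ± 0.08 at 6 h (edgeR adjusted p = 0.0054). The 6 h call was kept in each of 17 settings, and the 2 h call was lost without untreated B of run 1, untreated A or B of run 2 or treated A of run 2 (0.14 to 0.23, adjusted p 0.052 to 0.15).

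PCNA, the sliding clamp, had the highest gene-body density of the members at 0 h, 41.7 ± 27.9 CPM per kb (SD, n = 5), and also the widest spread. Untreated levels were 218 and 333 CPM in run 1 and 202 in run 3, but 821 and 857 in run 2. At 2 h they were 347 CPM in run 1 and 328 and 518 in run 2, at 6 h 542 and 663 in run 2 and 119 and 188 in run 3, and at 24 h 563 and 602. Both runs with a 6 h library had lower levels there than their untreated libraries, and at 2 h run 2 was lower and run 1 was not. No time passed the test for PCNA (-0.45 ± 0.25 at 2 h, edgeR adjusted p = 0.16).

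Of the clamp loader, replication factor C, the subunits RFC2, RFC4 and RFC5 rose at 2 h and 6 h, and RFC1 and RFC3 did not pass the test, a difference that was not itself tested. RFC1 had an estimate of -0.16 at 2 h, with -0.40 within run 1 and 0.01 within run 2, and the runs differed (edgeR adjusted p = 0.014). RFC3 had -0.19, with -0.55 within run 1 and 0.04 within run 2, and the runs differed here too (edgeR adjusted p = 0.0026). RFC4 had 57.2, 51.9, 55.4, 53.5 and 48.3 CPM untreated, and 71.5, 71.1 and 69.1 CPM at 2 h, above all of them. At 6 h it had 69.6 and 74.9 CPM in run 2 and 57.0 and 60.5 in run 3, and at 24 h 56.7 and 67.7. Both later times reached down to the upper end of the untreated range. The rise was 0.36 ± 0.07 at 2 h (edgeR adjusted p = 0.0029) and 0.36 ± 0.08 at 6 h (edgeR adjusted p = 0.0039), and both calls were kept in each alternative setting. The listed RFC4 transcript overlaps that of EIF4A2, and since the counted strand is not given, reads of the 2 genes cannot be told apart. RFC2 rose by 0.25 ± 0.07 and 0.21 ± 0.07 and RFC5 by 0.25 ± 0.09 and 0.32 ± 0.09 at 2 h and 6 h. The 2 h call of RFC5 was lost without any 1 of the libraries compared except untreated B of run 1 (0.20 to 0.31, adjusted p 0.055 to 0.12), and its 6 h call without untreated A of run 3 or of run 2 or treated A or B of run 2 (0.28 to 0.34, adjusted p 0.054 to 0.092). The 6 h call of RFC2 was lost without any 1 of the libraries compared except those untreated in run 1 (0.14 to 0.23, adjusted p 0.064 to 0.27). RPA1, which coats single-stranded DNA, was called at 2 h (0.19 ± 0.07) at the limit of the threshold (edgeR adjusted p = 0.050). It kept that call in 2 of 16 settings, and 1 of these, the fit with no filter, repeats the main fit. Without any 1 of the libraries compared except untreated A of run 1 its log2 change was 0.12 to 0.21 (adjusted p 0.055 to 0.33).

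LIG1 and FEN1 finish the Okazaki fragments of the lagging strand, by sealing nicks and removing flaps. LIG1 had 156, 179, 157, 155 and 141 CPM untreated, 178, 197 and 211 at 2 h, 204, 198, 213 and 183 at 6 h and 187 and 178 at 24 h. Each 6 h library lay above the untreated ones, and the 2 h and 24 h libraries overlapped with untreated B of run 1. It rose by 0.29 ± 0.08 at 2 h (edgeR adjusted p = 0.012) and 0.37 ± 0.08 at 6 h (edgeR adjusted p = 0.0051). The 2 h call was lost without treated B of run 2 (0.23, adjusted p = 0.059) and the 6 h call without untreated A of run 3 (0.30, adjusted p = 0.062). FEN1 had estimates of 0.29, 0.31 and 0.41 with standard errors of 0.13 to 0.16 and was not called.

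RRM2, the regulated small subunit of ribonucleotide reductase, had the largest change of the members at 24 h. Its untreated levels were 52.6 and 51.7 CPM in run 1, 47.3 and 51.4 in run 2 and 42.8 in run 3. They were 59.4, 71.9 and 60.0 CPM at 2 h, 72.7, 76.8, 61.3 and 53.5 at 6 h and 82.2 and 73.2 at 24 h. Each treated library exceeded each untreated one, although the lowest 6 h library did so by a small margin. The rise was 0.31 ± 0.09 at 2 h, 0.50 ± 0.09 at 6 h and 0.58 ± 0.11 at 24 h (edgeR adjusted p = 0.015, 0.0014 and 0.0026). The 2 h call was lost without treated A of run 2 (0.22, adjusted p = 0.064) and the 24 h call without library A (0.50, adjusted p = 0.051). RRM1, the large subunit, rose at 6 h (0.28 ± 0.08, edgeR adjusted p = 0.025), a call that was lost when any 1 of 6 libraries was left out (0.24 to 0.29, adjusted p 0.052 to 0.12): untreated A of run 3, A and B of run 2, and at 6 h A and B of run 2 and B of run 3. TYMS, which makes thymidylate, was not called, and its transcript overlaps ENOSF1 and C18orf56.

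CHAF1A and CHAF1B, genes of chromatin assembly behind the fork, and SLBP, which binds histone mRNA, had no call at any time. Of these 3 genes 1, 0 and 0 had an unadjusted p under 0.05 at 2, 6 and 24 h. All 3 were higher within run 2 at these times (medians 0.29, 0.22 and 0.11) and within run 3 at 6 h (0.09). Within run 1 at 2 h 1 was higher and 2 lower (median -0.25). The 2 h change differed between these runs for CHAF1A (edgeR adjusted p = 0.011) and CHAF1B (edgeR adjusted p = 0.0037) but not SLBP (edgeR adjusted p = 0.062). Of the genes that protect the fork, TIMELESS rose at all 3 times and CLSPN at 6 h. TIMELESS, whose protein travels with the fork together with TIPIN (chr12:56810157-56843200 on hg19), had 65.3 and 65.2 CPM untreated in run 1, 54.1 and 52.0 in run 2 and 59.9 in run 3. Levels were 79.5, 71.1 and 73.8 CPM at 2 h, 76.5, 77.7, 68.6 and 76.1 at 6 h and 75.3 and 65.5 at 24 h. Each treated library was above each untreated one, with the second 24 h library only just so. The rise was 0.35 ± 0.08 at 2 h, 0.41 ± 0.08 at 6 h and 0.33 ± 0.09 at 24 h (edgeR adjusted p = 0.0037, 0.0019 and 0.026). The 2 h and 6 h calls were kept in each setting, and the 24 h call was lost without untreated A or B or treated A of run 2 (0.31, 0.28 and 0.23, adjusted p 0.065, 0.081 and 0.27). CLSPN, the claspin adaptor of the checkpoint kinase at forks, had 91.4 and 99.9 CPM untreated in run 1 but 54.6, 56.7 and 53.3 in the other runs, and 80.0 to 92.9 CPM at 6 h. Its rise of 0.57 ± 0.13 at 6 h was the largest of any member at that time (edgeR adjusted p = 0.0074), and the log2 change was 0.54 without the untreated library of run 3 (adjusted p = 0.054). TIPIN, WDHD1 and DTL, whose transcript overlaps INTS7, were not called.

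CLSPN and GINS2 show how far the untreated libraries of run 1 weigh on these results. The members' median level, centred on each gene's mean over the libraries, was 0.09 and 0.07 in the untreated libraries of run 1 on the log2 scale, but -0.14 and -0.14 in run 2 and -0.23 in run 3. At 2 h the members' median change was 0.26 within run 2 and -0.01 within run 1, where 51.7% and 51.2% of all transcripts were higher. At 6 h 41 members were higher within run 2 (median 0.22) and 39 within run 3 (median 0.15), and at 24 h 35 were higher within run 2 (median 0.10). The 2 h change differed between runs 1 and 2 for 18 of 49 members (36.7%) by an interaction term in edgeR, against 28.3% of all transcripts. The change was more positive in run 2 for 17 of the 18, among them CLSPN (difference 0.85, edgeR adjusted p = 0.0011), MCM6 (0.81, edgeR adjusted p = 0.0013) and ORC2 (0.43, edgeR adjusted p = 0.016). PCNA went the other way, by -1.32 (edgeR adjusted p = 0.017). At 6 h no member differed between runs 2 and 3 (3 at an unadjusted p under 0.05), against 0.437% of all transcripts.

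**Figure D3:**
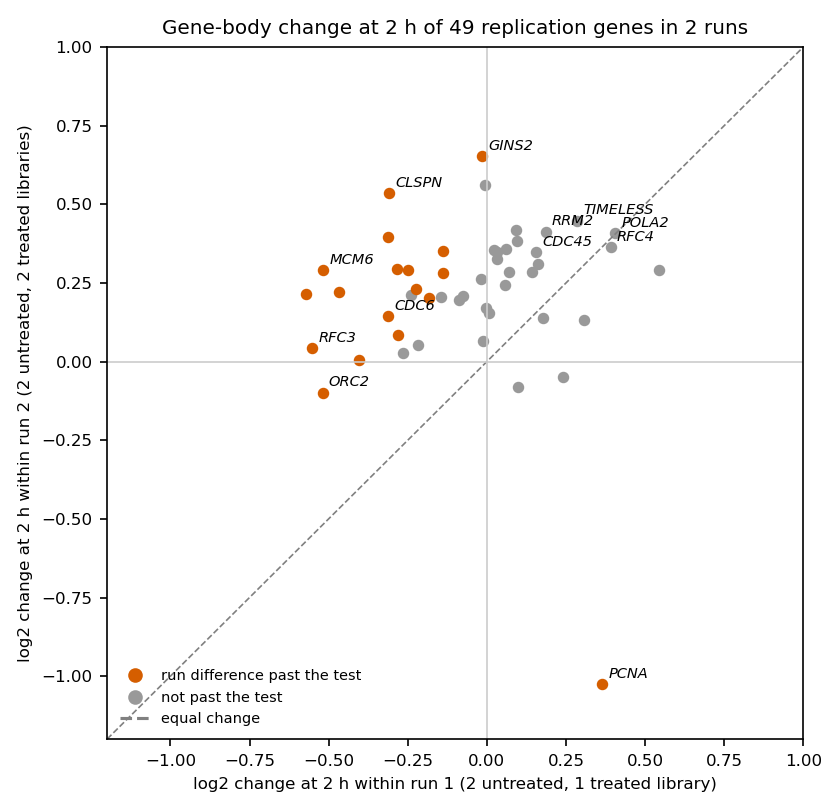
Log2 change in gene-body level at 2 h within run 1 (x axis) and within run 2 (y axis) for the 49 members; each point is a gene, orange where the change differed between the runs at an adjusted p under 0.05. POLA2 and RFC4 lie near the line of equal change, 17 of the 18 orange points lie above it, and PCNA lies far below.

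Without both untreated libraries of run 1, 27 members rose and 1 fell at 2 h, where 24.7% of all transcripts passed in either direction. At 6 h 28 rose and 2 fell (37.6% of all transcripts), and at 24 h 12 rose and 1 fell (29.6%). Run 2 alone, the only run with all 4 times, gave 35 rises and 1 fall at 2 h (38.2% of all transcripts), 32 and 3 at 6 h (42.5%) and 17 and 3 at 24 h (43.2%). The spread in that fit comes from 2 libraries per time, which lay closer to each other than any other pair of the same time. Run 3 has 1 untreated library, so its 6 h values rest on that library. What the runs stand for was not tested.

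Between treated times 2 members were called, both at 24 h against 2 h, and run 2 alone gave more. No member differed between 6 h and 2 h (0 of 49, with 4 at an unadjusted p under 0.05 and 1 by DESeq2, against 1.58% of all transcripts in edgeR) or between 24 h and 6 h (0 by edgeR and DESeq2, with 4 at an unadjusted p under 0.05, against 0.175%). PRIM1 was higher and MCM4 lower at 24 h than at 2 h. In run 2 alone, which holds all 24 h libraries, 3 members were higher and 17 lower at 24 h than at 2 h (22.4% of all transcripts called). There 2 were higher and 6 lower at 6 h than at 2 h (16.6%), and 1 was higher and 6 lower at 24 h than at 6 h (9.26%). The median difference of the 49 members between 24 h and 6 h was -0.12, and 6 of them were above 0, beside 49.4% of all transcripts.

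Near promoters few members were called, and the errors were larger. In gene bodies the estimates of members not called at 2 h ran from -0.45 to 0.47, and near promoters from -0.60 to 0.68. MCM6 was the only member called at 2 h and fell, where 2.17% of all transcripts fell and 4.61% passed in either direction. No member was called at 6 h by edgeR or DESeq2 (2 at an unadjusted p under 0.05), where 2.24% of all transcripts passed. MCM6 and RFC3 fell at 24 h, where 1.41% of all transcripts passed. The median log2 change of the 49 members was -0.11 at 2 h, 0.02 at 6 h and -0.10 at 24 h, and its size depended on single runs. At 2 h it was -0.0067 without both untreated libraries of run 1 and -0.0074 without the 2 h library of that run. With a run term, either omission leaves no 2 h change within run 1 to estimate, so these are not separate checks. At 6 h the median was 0.06 without both untreated libraries of run 1 and -0.07 without run 3. The 3 libraries of run 3 lay at one end of the first component of promoter-proximal levels (34.7% of the variance).

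MCM6 (chr2:136597196-136634011 on hg19), whose promoter holds the E2F-type letters at 2 places, had untreated promoter-proximal levels of 74.6 and 90.3 CPM in run 1, 113 and 114 in run 2 and 39.3 in run 3. They were 56.1, 44.9 and 67.7 CPM at 2 h, 71.0, 71.8, 28.8 and 33.1 at 6 h and 44.1 and 60.0 at 24 h. Within each run every treated library lay below every untreated one, and the times overlapped across runs because run 3 was low throughout. The fall was 0.79 ± 0.20 at 2 h (edgeR adjusted p = 0.031) and 1.0 ± 0.25 at 24 h (edgeR adjusted p = 0.050), and the 6 h change was -0.50 ± 0.20 (edgeR adjusted p = 0.22). Its gene-body change was -0.02, 0.01 and -0.18 at the same times. The 2 h value averages -0.52 within run 1 and 0.29 within run 2, and the runs differed (edgeR adjusted p = 0.0013). RFC3, a small clamp loader subunit (chr13:34392206-34540695 on hg19), had 179 and 278 CPM untreated in run 1, 209 and 226 in run 2 and 147 in run 3. It had 160.1, 132 and 133 CPM at 2 h, 139.9, 136, 118 and 116 at 6 h and 99.3 and 114 at 24 h. Within each run the treated libraries again lay below the untreated ones. The fall at 24 h was 0.95 ± 0.24 (edgeR adjusted p = 0.050), and at 2 h and 6 h the changes were -0.60 ± 0.19 and -0.51 ± 0.19 (edgeR adjusted p = 0.071 and 0.18).

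These 3 calls are weak. The 2 h call of MCM6 was lost without untreated A or B of run 2, treated A or B of run 2 or the treated library of run 1 (-0.62 to -0.94, adjusted p 0.061 to 0.16). The 24 h calls were lost without untreated A of run 3, untreated A or B or treated A or B of run 2 (MCM6 -0.80 to -1.26, adjusted p 0.053 to 0.48, and RFC3 -0.86 to -1.06, adjusted p 0.051 to 0.41). With gene-body scaling factors in place of the region's own, the median of all transcripts moved to -0.16, -0.23 and -0.23 at 2, 6 and 24 h, and no member was called near its promoter. In the authors' deposited table none of the 49 members passed an adjusted p under 0.05 near promoters at 2, 6 or 24 h, beside 0.757%, 0.903% and 0.369% of all transcripts. In gene bodies 15, 14 and 4 members passed in the authors' deposited table, beside 40%, 28.4% and 22.4% of all transcripts. DESeq2 with a run term, fitted here to the same gene-body counts, called as many transcripts (4125, 2930 and 2304). The deposited gene-body calls are therefore no separate check of that fit.

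**Figure D4:**
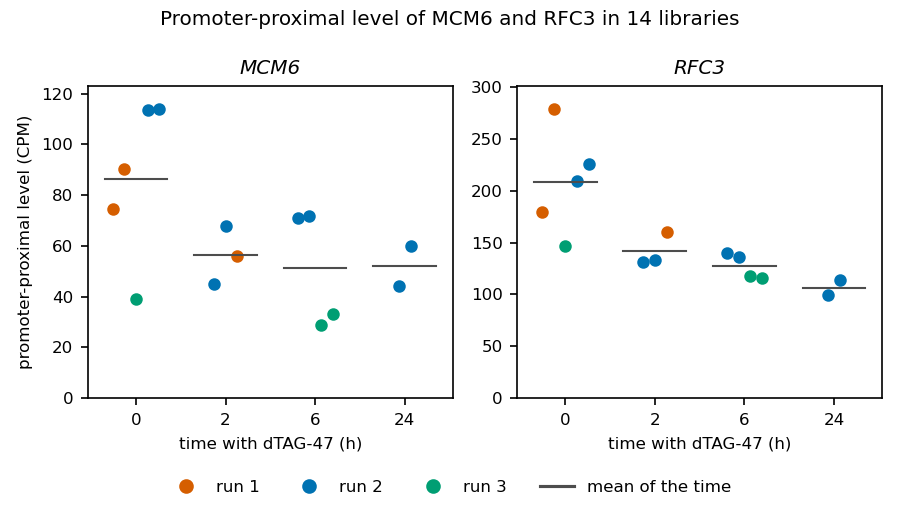
Promoter-proximal level in CPM (y axis, from 0) of MCM6 and RFC3 in each of 14 libraries by time with dTAG-47 (x axis); each point is a library, coloured by run, and each line is the mean of a time. Within each run the treated libraries lie below the untreated ones, and for MCM6 run 3 is low at 0 h and 6 h.

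The balance between the regions was tested directly, as promoter-proximal minus gene-body change per library with limma. No member was called at 2, 6 or 24 h (6, 3 and 6 at an unadjusted p under 0.05), where 1.15%, 0.391% and 0.251% of all transcripts were. The median difference of the members was -0.26, -0.18 and -0.19, beside -0.03, -0.02 and -0.02 over all transcripts. POLA2, which rose in gene bodies, had a difference of -0.68 ± 0.21 at 2 h (limma adjusted p = 0.11), and RRM2 one of -0.81 ± 0.24 (limma adjusted p = 0.095).

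Per length, the untreated gene bodies of the members were denser than most. Their median at 0 h was 2.997 CPM per kb, beside 1.94 over all transcripts, and 36 of 49 were above the median of all. After PCNA the order ran through MCM7 (11.3 ± 1.94 CPM per kb), CDT1 (7.83 ± 1.53), MCM3 (7.42 ± 1.30) and POLE (6.99 ± 0.83), and it ended with ORC3 (0.99 ± 0.05), RFC3 (0.96 ± 0.20) and PRIM2 (0.89 ± 0.08; all SD, n = 5). The MCM7 transcript overlaps AP4M1, so its level is uncertain. Of 48 pairs of neighbours in this order, 46 had overlapping ranges over the 5 libraries.

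Other genes of the S phase program changed in both directions, and their called shares are set beside the 38.6%, 26.8% and 19.8% of all transcripts called at 2, 6 and 24 h. Of 41 other replication genes 10 rose and 4 fell at 2 h, 12 rose and 2 fell at 6 h, and 8 rose and 1 fell at 24 h (34.1%, 34.1% and 21.95% called). Their median change at 2 h was -0.21 within run 1 and 0.15 within run 2. RNASEH2A, the catalytic subunit of ribonuclease H2, rose by 0.88 ± 0.09, 0.75 ± 0.09 and 0.60 ± 0.11 (edgeR adjusted p = 3.9e-05, 1.1e-04 and 0.0029), and RNASEH2B, an accessory subunit of the same enzyme, fell by 0.37 ± 0.05, 0.25 ± 0.05 and 0.26 ± 0.06. TK1, the thymidine kinase of S phase, rose by 0.60 ± 0.09, 0.75 ± 0.09 and 0.64 ± 0.11 (edgeR adjusted p = 3.3e-04, 8.5e-05 and 0.0015). ASF1B, a histone chaperone, rose by 0.48 ± 0.07 at 2 h, and FAM111A, a protease of replication forks, by 0.54 ± 0.07 at 6 h and 0.71 ± 0.09 at 24 h.

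Of 24 genes of the S phase checkpoint and homologous repair, 5, 4 and 1 rose and 1, 1 and 1 fell at 2, 6 and 24 h (25%, 20.8% and 8.33% called). Their median change at 2 h was -0.24 within run 1 and 0.18 within run 2. BRCA1 rose by 0.31 ± 0.05, 0.37 ± 0.05 and 0.27 ± 0.06. Of 24 E2F factors, G1/S cyclins and pocket proteins, 3 rose and 8 fell at 2 h, 6 rose and 6 fell at 6 h, and 4 rose and 1 fell at 24 h (45.8%, 50% and 20.8% called). At 2 h 18 of the 24 were lower within run 1 (median -0.20) and 12 within run 2 (median 0.03). E2F5, a repressor of the E2F family, fell by 1.60 ± 0.15, 1.36 ± 0.15 and 1.38 ± 0.19 (edgeR adjusted p = 2.9e-05, 4.3e-05 and 4.3e-04). CCNE2, a cyclin that drives entry into S phase, rose by 0.50 ± 0.13, 0.84 ± 0.14 and 0.77 ± 0.17 (edgeR adjusted p = 0.011, 8.6e-04 and 0.0064). Of 26 mitosis genes 6 rose and 2 fell at 2 h, 2 rose and 2 fell at 6 h, and 5 rose and 0 fell at 24 h (30.8%, 15.4% and 19.2% called). Their median change at 2 h was 0.15 within run 1 and -0.02 within run 2. Their median change at 24 h was 0.21, beside 0.06 for the 49 replication genes, a difference that was not tested.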

How the data were processed

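Nuclear run-on RNA of 14 libraries of tagged cells was sequenced, and hg19 is the build that the submitters' processing notes name, with Bowtie2 2.2.2, DESeq, DESeq2, HOMER, SAMtools and Trimmomatic 0.32 among the tools. The values used are raw read counts per transcript that the authors deposited for gene bodies and promoter-proximal regions. The authors' deposited tables also give log2 fold changes and adjusted p-values per comparison, used only where named. The windows, the counted strand and what the run codes mean were not given in the sources used here, and 84 normalized columns were not used.

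Counts passed edgeR's default filter (10304 transcripts in gene bodies, 9980 near promoters, with all 49 members in both) and were scaled by TMM. edgeR 4.0.16 (R 4.3.3) fitted time and run to all 14 libraries. Adjustment was by Benjamini-Hochberg over all transcripts, with a threshold of 0.05. Promoter-proximal minus gene-body log2 CPM (prior count 2) was tested with limma 3.58.1. The series is described as biological replicates, and libraries of the same time differed by more than counting noise, to unlike degrees. Libraries A and B of run 2 were closest, with a chi-square per degree of freedom of 2.01, 5.33, 1.53 and 3.02 at 0, 2, 6 and 24 h. For the other pairs of the same time it was 14.6 to 88.3, with no correction for read numbers.

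The members, roles, other lists, tests and the rule for named genes were chosen with earlier results of these data known. The rule named, for each comparison and region, up to 4 called members with the smallest adjusted p, the largest rise and fall, members needed to describe a role, and up to 4 genes of each other list. Alternatives were no run term, a threshold of 0.01, run 2 alone, only the groups compared, no filter, DESeq2 1.42.0, DESeq2 size factors in edgeR, gene-body scaling near promoters, a prior count of 0.5, and leaving out each library. In gene bodies the filter removed no transcript, so the setting without it repeats the main fit and is no separate check. Leaving out both untreated libraries of run 1, leaving out run 3, and the test of the difference between runs were added after seeing the data.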

Additional observations from a re-analysis of the deposited data

Results flagged for a closer look

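CDC45, gene-body level: the untreated library of run 3 had 138 CPM, and the other 4 untreated libraries had 156 to 161 CPM. Its gap to the others was wide for a group of 5. It was the only such library among 40 groups of members and times examined. By chance about 1 in 20 groups would show such a gap, so this is no more than chance gives. As run 3 has 1 untreated library, an outlying library and an offset of that run cannot be told apart.

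PRIM1 and MCM4 are given because their change from 0 h differed between 24 h and 2 h by a direct test in edgeR. The difference was 0.39 on the log2 scale for PRIM1, higher at 24 h, and -0.31 for MCM4, lower at 24 h, where 4.08% of all transcripts were called.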

How the results depend on the processing

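Low read numbers limit the precision of the promoter-proximal values, the 24 h comparisons rest on 2 libraries of 1 run, and the runs cannot be told apart from other differences between the libraries that carry their codes. No paired analysis was possible because the columns carry letters whose meaning is not given in the sources used here and no replicate number of the sample labels. In gene bodies the members called numbered 14 at 2 h, 14 at 6 h and 4 at 24 h. Without a run term they numbered 5 at 2 h and 2 at 24 h. At a threshold of 0.01 they numbered 4 at 2 h and 8 at 6 h. In run 2 alone they numbered 36, 35 and 20 at 2, 6 and 24 h. With only the groups compared they numbered 4, 23 and 10. Without both untreated libraries of run 1 they numbered 28, 30 and 13. Leaving out 1 library gave 8 to 21, 7 to 16 and 2 to 6. The lowest counts came without untreated A or treated B of run 2 at 2 h, untreated A of run 3 at 6 h and treated A at 24 h. The count of all transcripts called at 2 h was 3979, and 1365 without a run term. For 24 h against 2 h (2 members), no run term and a threshold of 0.01 each gave 0, run 2 alone 20 (3 higher, 17 lower), the groups compared 11 (2 higher, 9 lower) and leaving out 1 library 0 to 4. For 6 h against 2 h (0), run 2 alone gave 8 and DESeq2 1. For 24 h against 6 h (0), run 2 alone gave 7 and the groups compared 1. Near promoters at 2 h (1), no run term, a threshold of 0.01, the groups compared and gene-body scaling each gave 0, run 2 alone 4, DESeq2 and omission of run 3 each 2, and leaving out 1 library 0 to 2. At 6 h (0), run 2 alone gave 2. At 24 h (2), no run term, 0.01, DESeq2 size factors, no filter, the groups compared and gene-body scaling each gave 0, run 2 alone 7, and leaving out 1 library 0 to 3. For promoter-proximal minus gene-body change (0), run 2 alone gave 4 at 2 h and 4 at 24 h, and omission of the untreated libraries of run 1 gave 1 at 2 h. No called member changed direction in any alternative. The cause of these shifts was not tested.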
